A study of Gallus gallus with 9 samples.

Results

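The thymus of broiler chicks given lipopolysaccharide together with genistein (GEN) was set against that of chicks given lipopolysaccharide without genistein (LPS). Each group had 3 libraries of total thymus RNA, out of 9 in the series. The remaining 3 came from chicks treated with the basic diet (CON) and serve here only as background values. All birds were ROSS 308 chicks, a commercial meat line, at day 21 after hatching. The labels give no dose, route, duration, sex or pen, and they do not say whether a library stands for 1 bird or a pool, so the p-values rest on the variation among these libraries, part or all of which may be technical. A gene was included when it reached at least 1 FPKM (fragments scaled to gene length and library size) in at least 3 of the 6 GEN and LPS libraries, which 13171 of the 25016 genes in the table did. The spread between libraries was estimated from these 6 libraries alone.

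The thymus is the organ in which T cells rearrange their receptor genes and are selected, and most of its cells are immature thymocytes. Lipopolysaccharide, a component of the outer membrane of Gram-negative bacteria, is sensed by Toll-like receptor 4, which starts NF-κB signalling and the release of inflammatory cytokines. Genistein, a plant isoflavone abundant in soybean, has affinity for oestrogen receptors and inhibits protein tyrosine kinases. The table lists genes by Ensembl identifier, or by a running number for models predicted by the submitters, and pairs none of them with a gene name. The RefSeq table at hand, made for another chicken assembly, matched 0 of these identifiers. Genes of known pathways and markers of thymic cell types could therefore not be looked up, so the labelled tissue was not checked against its markers, and genes are described by identifier, position in the GRCg6a build, chromosome, length and level. In whole tissue, fewer cells of a type and less RNA per cell cannot be told apart.

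Depth was similar in both groups, with 19618047 to 23476562 gene fragments in GEN libraries and 22440811 to 25863282 in LPS libraries. LPS 1 stood apart within this set. On the log2(FPKM + 1) scale principal component 1, with 38.9% of the variance, placed LPS 1 at 36.1, GEN 1 at 3.7, LPS 3 at 0.4, LPS 2 at -0.3, GEN 2 at -17.8 and GEN 3 at -22. It thus did not separate the groups, since GEN 1 lay on the LPS side. The median absolute log2 difference between 2 libraries, over all tested genes, was 0.151 to 0.285 for the 9 pairs of a GEN with an LPS library and 0.128 to 0.199 for the 6 pairs within a group. GEN 1 differed less from LPS 3 (0.151) and LPS 2 (0.152) than from GEN 2 (0.169) and GEN 3 (0.179). The largest differences were those of LPS 1 with GEN 3 (0.285) and GEN 2 (0.263). The spread within groups was alike, with a median SD per gene of 0.147 in GEN and 0.145 in LPS. Genes of the W chromosome, which only female birds carry, were at or near 0 in each of the 6 libraries: the 126 W genes summed to 1.58, 2.34 and 1.68 FPKM in GEN and to 1.4, 1.07 and 1.76 FPKM in LPS. CON 3, the library that stands apart in the whole series, did not enter the comparison, and was part of a fit only in an alternative with all 9 libraries.

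The comparison asks which thymic transcripts differed when genistein was added to lipopolysaccharide. No gene passed the test across all genes. limma, with a prior variance that follows the mean, was fitted to log2(FPKM + 1) and put 0 of 13171 genes below an adjusted p of 0.05, which is 0.0% of those tested, and 1 gene at an adjusted p under 0.1. At an unadjusted p under 0.05, limma gave 1686 genes, 12.8% of those tested, of which 769 (5.84%) were higher and 917 (6.96%) lower in GEN. An even spread of p would put 659 genes there. The count was not tested against that number, since genes of a library vary together. limma-voom on the whole fragments recovered from the FPKM values also called 0 genes and put 1752 under an unadjusted p of 0.05, with the larger part, 957, higher in GEN and 795 lower. Which direction held more genes thus depended on the processing. With only the scaling changed, limma gave near even counts. They were 852 higher and 843 lower with quantile normalization, and 859 and 824 after scaling each library to its fragment sum. For a typical gene the standard error of the log2 fold change was 0.13 (median), and the 95% interval reached 0.32 to either side, a 1.25-fold difference.

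The differences were small for most of these genes. The median ratio of the GEN mean to the LPS mean was 1.36 among the 769 genes that were higher and 0.776 among the 917 that were lower. A ratio of means of at least 2-fold was reached by 80 of the higher genes and by 61 of the lower ones. On the log2(FPKM + 1) scale, which understates the change of low genes, 43 genes had a log2 fold change of at least 1 and 43 of at most -1, and 37 and 30 of these had an unadjusted p under 0.05. Every GEN library lay above every LPS library for 1186 genes, 9.0% of those tested, and below every LPS library for 1517, 11.5%. With 3 libraries a side, some genes separate in this way without any difference between the groups. Of the tested genes, 30 passed the filter with at least 1 FPKM in all 3 GEN libraries and in 0 LPS libraries, and 23 with the reverse pattern; a difference between the groups was built into their selection.

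**Figure D1:**
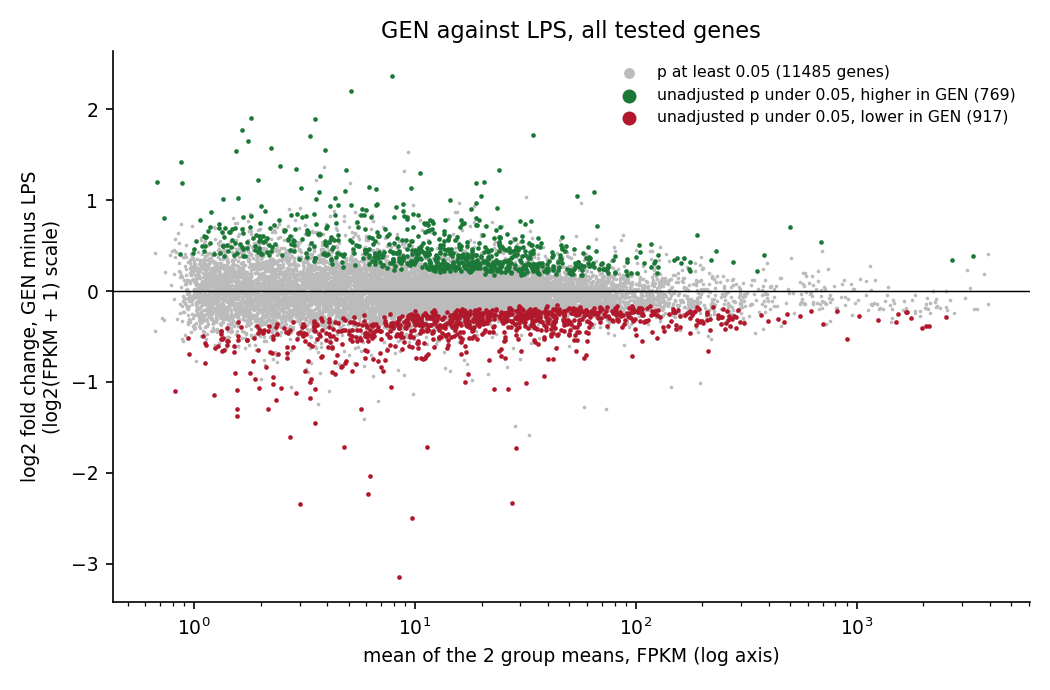
Log2 fold change of GEN minus LPS (vertical, log2(FPKM + 1) scale) against the mean level of each of the 13171 tested genes (horizontal, FPKM, log axis). Green points are the 769 genes higher and red points the 917 genes lower in GEN at an unadjusted p under 0.05, and grey points are all others. The coloured points sit on both sides at every level, and the few points below -2 are genes between about 1 and 100 FPKM.

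The values of 4 genes are given in full. They are the 2 genes higher and the 2 lower in GEN with the lowest p among genes whose span overlaps no other gene model. Since p chose them, their separation between groups is a description. The files give no name or function for any of them.

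The gene with the lowest p in the comparison was a model predicted by the submitters on the plus strand of chromosome 20 (5170329 to 5171174, 525 bases of exon). It measured 9.17, 6.35 and 9.81 FPKM in the 3 GEN libraries, against 56.3, 38.8 and 44.4 FPKM in the 3 LPS libraries. The lowest LPS value was thus well above the highest GEN value. These levels rest on 71 to 129 fragments per GEN library and 482 to 790 per LPS library. The ratio of means of GEN to LPS was 0.182, and the log2 fold change was -2.33 (SE 0.19) with a limma adjusted p of 0.0595. In CON libraries it measured 5.26, 15 and 3.88 FPKM, a range that covers the GEN values. Over 20 alternative settings the limma adjusted p of this predicted gene lay between 0.0282 and 1.0, and it was the single gene called in each of the 6 settings that called any.

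ENSGALG00000047890 lies on the plus strand of chromosome 1, where 168 bases of exon spread over a span of 109506188 to 109525150. It measured 4.17, 6.15 and 3.8 FPKM in GEN libraries, against 15.4, 24.4 and 14.1 FPKM in LPS libraries. The groups did not overlap, and LPS 2 was the highest library. The gene is short, and the values rest on only 15 to 22 fragments per GEN library and 60 to 97 per LPS library. The log2 fold change was -1.71 (SE 0.24), with a limma adjusted p of 0.303. CON libraries held 13.8, 9.94 and 23.5 FPKM, all above the GEN values. CON 1 and CON 2 lay below every LPS library, and only CON 3, which stands apart in the series, lay among them.

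Both genes that were higher in GEN lie on chromosome 4. ENSGALG00000008141, on the minus strand (13903972 to 13924666, 1641 bases of exon), measured 15.5, 15.4 and 15.1 FPKM in GEN libraries, against 8.73, 7.77 and 9.25 FPKM in LPS libraries. The 3 GEN values lay close together, above every LPS value. They rest on 537 to 621 fragments per GEN library and 302 to 384 per LPS library. The ratio of means was 1.79, and the log2 fold change was 0.77 (SE 0.10) with a limma adjusted p of 0.303. CON libraries held 5.95, 10.4 and 5.24 FPKM, none of them near the GEN level. ENSGALG00000010769, also on the minus strand (43759687 to 43785536, 1675 bases of exon), measured 15.1, 15 and 15.9 FPKM in GEN libraries, against 8.46, 9.98 and 7.86 FPKM in LPS libraries. The pattern was like that of the previous gene, with tight GEN values above all LPS values. Its log2 fold change was 0.75 (SE 0.11), with a limma adjusted p of 0.303 and a ratio of means of 1.75. CON libraries held 5.53, 8.32 and 7.53 FPKM.

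**Figure D2:**
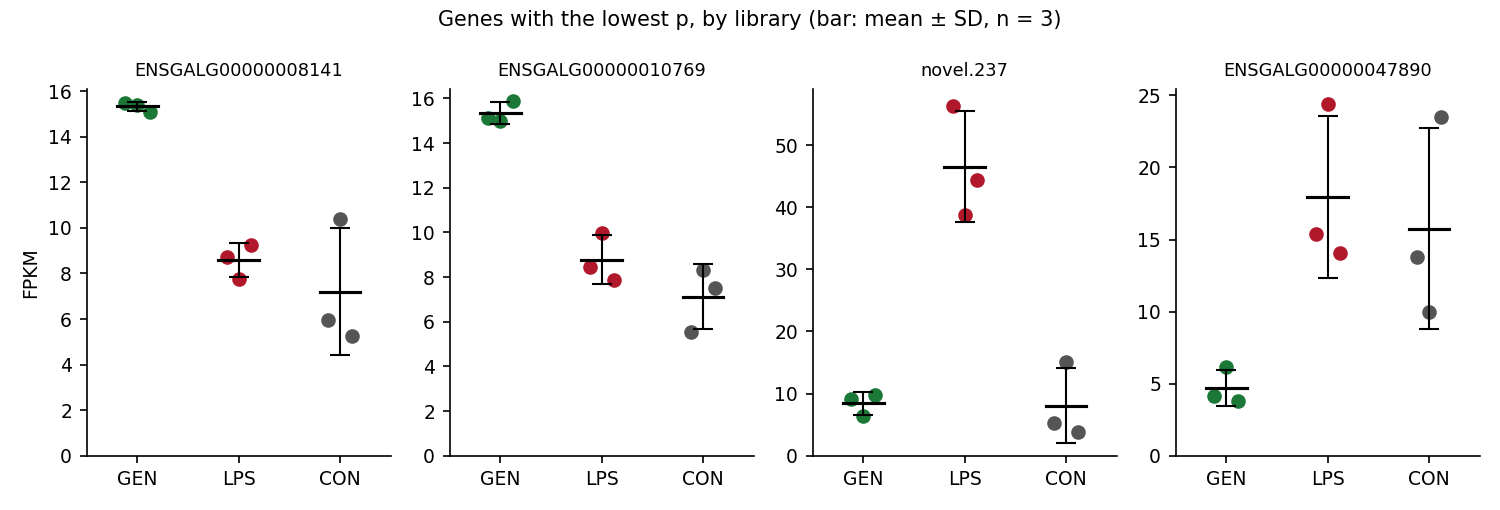
FPKM of the 4 genes (vertical, from 0) in the libraries of GEN, LPS and CON (points), with the mean and SD (n = 3 each). GEN lies above LPS in the 2 panels on the left and below it in the 2 on the right. In the third panel, the predicted gene of chromosome 20, the CON libraries (3.88 to 15 FPKM) lie about the GEN level. For ENSGALG00000047890 CON 1 and CON 2 lie between the GEN and LPS libraries, and CON 3 lies among the LPS libraries.

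The genes around these 4 were described next, within 250 kb on either side. Near ENSGALG00000008141, 13 other genes were tested, and 3 of them, 23.1%, had an unadjusted limma p under 0.05, against 12.8% of all tested genes. All 3 were higher in GEN, as were 5.84% of all tested genes at that threshold. One, on the plus strand (chromosome 4, 14021011 to 14067749), measured 7.34, 9.1 and 8.98 FPKM in GEN libraries, against 4.86, 5.32 and 4.83 FPKM in LPS libraries. Its log2 fold change was 0.65 (SE 0.12), with a limma adjusted p of 0.303. A second gene on the same strand (14098673 to 14102672) measured 9.4, 8.98 and 9.03 FPKM in GEN libraries, against 4.36, 5.06 and 3.42 FPKM in LPS libraries. Its log2 fold change was 0.95 (SE 0.14), with a limma adjusted p of 0.303, but its span overlaps another gene model, and with no strand setting given their fragments may not be separate. In the 3 genes of this stretch of chromosome 4 with the lowest p, which include ENSGALG00000008141, the GEN values lay above all LPS values. Their choice by p largely fixed this separation. The last gene, at 13806407 to 13813922, had a smaller log2 fold change of 0.24 (SE 0.09), with a limma adjusted p of 0.366. The median log2 fold change of the 13 genes was 0.22, against -0.02 over all tested genes, and 30.8% of them lay below 0. Without LPS 1 the median was 0.09.

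The surroundings of the other 3 genes were read in the same way. Around the predicted gene of chromosome 20, 24 genes were tested, 3 (12.5%) higher and 5 (20.8%) lower in GEN at an unadjusted limma p under 0.05, against 5.84% and 6.96% of all tested genes. Every GEN library lay below every LPS library for 9 of the 24 (37.5%), against 11.5% of all tested genes, and the median log2 fold change was -0.10. The log2 fold changes of the genes under that p lay between -0.43 and 0.55, smaller in size than its -2.33. Around ENSGALG00000010769 only 2 other genes were tested. Both had a log2 fold change above 0, with a median of 0.27, and 0 had an unadjusted limma p under 0.05. Around ENSGALG00000047890, which was lower in GEN, 6 were tested, and the 2 with an unadjusted limma p under 0.05 were both higher in GEN, with a median of 0.08 over the 6. These shares rest on few genes, which lie side by side, and were not tested.

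Genes were then grouped by chromosome. The chicken karyotype combines a few large chromosomes with many very small, gene-dense microchromosomes. Here chromosomes 1 to 5 stand for the large ones and 11 to 33 for the small ones. The 5022 tested genes of chromosomes 11 to 33 had a median log2 fold change of -0.06, against 0.01 for the 5426 genes of chromosomes 1 to 5 and -0.02 for all tested genes. This difference was small in size. The median standard error of a single gene, 0.13, does not measure the uncertainty of a median over many genes. The values of chromosomes 11 to 33 by library are given below. Of the genes on chromosomes 11 to 33, 235 (4.68%) were higher and 473 (9.42%) lower in GEN at an unadjusted limma p under 0.05, while chromosomes 1 to 5 had 334 (6.16%) higher and 301 (5.55%) lower. Chromosomes 11 to 33 held 38.1% of all tested genes, 30.6% of those higher and 51.6% of those lower at that threshold. The order was the same under both other scalings: the median of chromosomes 11 to 33 was -0.05 with quantile normalization and -0.04 after scaling each library to its fragment sum, where chromosomes 1 to 5 gave 0.01 and 0.03.

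The lean was spread over many of the small chromosomes rather than carried by a few. Of the 22 chromosomes from 11 to 33 with genes in the table, 20 had a median below that of all tested genes, the exceptions being 15 and 19, and 19 had more genes lower than higher at an unadjusted limma p under 0.05. None of the 10 chromosomes from 1 to 10 had a median below that of all tested genes. Some margins were slim, with chromosome 10 at -0.016 and chromosome 18 at -0.019, against -0.017 for all tested genes. That reference includes the genes of chromosomes 11 to 33. A median below 0 was found on 2 of chromosomes 1 to 5, 2 of 6 to 10 and all 22 of 11 to 33. Among all tested genes 6.96% were lower and 5.84% higher at an unadjusted limma p under 0.05. On chromosome 22, 20 of 156 tested genes (12.8%) were lower and 3 (1.92%) higher, with a median of -0.11. On chromosome 28, 32 of 262 (12.2%) were lower and 6 (2.29%) higher, with a median of -0.09. On chromosome 32, 15 of 76 (19.7%) were lower and 6 (7.89%) higher, with a median of -0.13. In contrast, chromosome 15 had 23 higher and 21 lower, chromosome 18 had 17 each way and chromosome 20 had 22 each way. The Z chromosome leaned the other way, though its GEN and LPS libraries overlapped, as given below. On Z, 57 of 586 genes (9.73%) were higher and 17 (2.90%) lower, with a median of 0.04. No test of these medians was made, since genes of a library vary together.

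**Figure D3:**
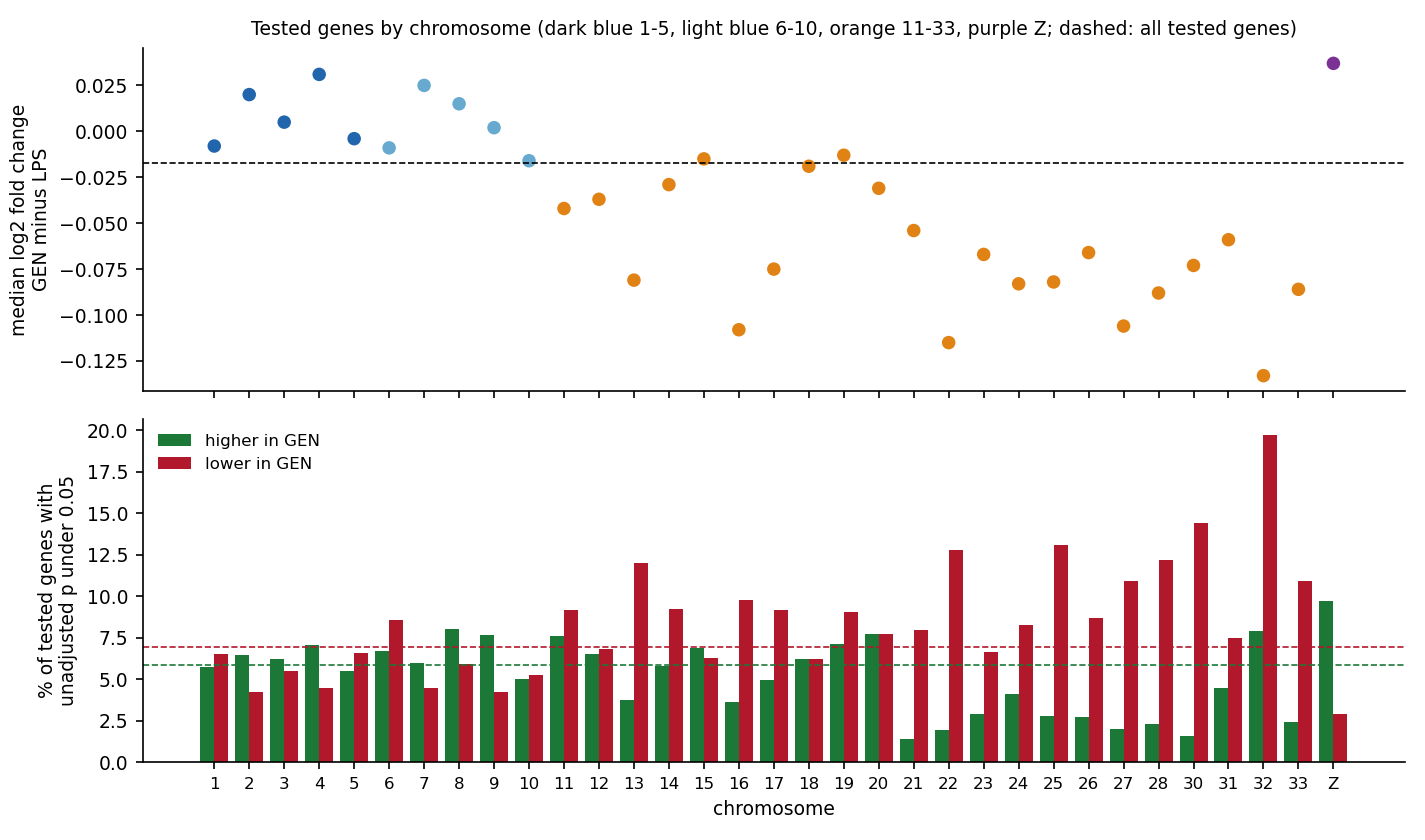
Tested genes by chromosome. The upper panel gives the median log2 fold change of GEN minus LPS, with the median of all tested genes, -0.02, as a dashed line, and the lower panel the percentage of genes higher (green) and lower (red) in GEN at an unadjusted p under 0.05, with dashed lines at 5.84% and 6.96% for all tested genes. Most chromosomes from 11 to 33 lie below the dashed line of the upper panel, and Z lies highest.

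Gene length and level moved with the same difference, so the chromosome groups were compared within classes of length and, separately, within classes of level. Among genes of 1000 to 2000 bases the median log2 fold change was -0.09 on chromosomes 11 to 33 and -0.03 on chromosomes 1 to 5. Among genes over 4000 bases the medians were -0.04 and 0.07. Among genes with a mean of 10 to 30 FPKM they were -0.05 and 0.03, and among genes of at least 100 FPKM -0.13 and -0.08. Chromosomes 11 to 33 thus had the lower median in each of these classes. No class held length and level alike at once, so their part in the difference was not tested. At 1 to 3 FPKM the medians were both 0.00 after rounding, so no such difference showed among low genes. On Z the median was -0.02 for genes of 300 to 1000 bases and also for those of 1000 to 2000 bases, as over all tested genes. It was 0.05 for Z genes of 2000 to 4000 bases and 0.10 for those over 4000 bases. In the same classes, from short to long, chromosomes 1 to 5 gave -0.06, -0.03, 0.01 and 0.07. Z thus had the higher median in each class, by little at 1000 to 2000 bases. Its median was above 0 only in its longer genes.

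Genes were also grouped by level and by length, over all chromosomes and with no test between classes. Of the 718 genes averaging 100 FPKM or more, 105 (14.6%) were lower and 29 (4.04%) higher at an unadjusted limma p under 0.05, against 6.96% lower and 5.84% higher among all tested genes, and 69.6% had a log2 fold change below 0. Their median was -0.10. Of the 1948 genes over 4000 bases, 161 (8.26%) were higher and 76 (3.90%) lower, with a median of 0.03. Shorter classes leaned the other way. Of the 1425 genes of 300 to 1000 bases, 78 (5.47%) were higher and 160 (11.2%) lower, with a median of -0.08. Of the 3667 genes of 1000 to 2000 bases, 149 (4.06%) were higher and 344 (9.38%) lower, with a median of -0.05. Genes of 2000 to 4000 bases were near even, with 320 higher and 313 lower. Genes of 80 to 300 bases had a median of 0.23, with 42 of 353 (11.9%) higher and 17 (4.82%) lower, but they held a median of only 18.8 fragments per library.

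These differences were not shared evenly by the libraries. Relative to the mean of the 6 libraries, the median deviation of genes on chromosomes 11 to 33 was 0.003, -0.064 and -0.024 in the 3 GEN libraries and 0.053, 0.007 and 0.021 in the 3 LPS libraries. The groups did not overlap, but GEN 1 and LPS 2 differed by little. On Z the deviations were -0.008, 0.052 and 0.033 in GEN libraries and -0.072, 0.0 and -0.005 in LPS libraries. GEN 1 thus lay below LPS 2 and LPS 3 on Z. Genes over 4000 bases had 0.013, 0.001 and 0.034 in GEN libraries and -0.035, -0.016 and 0.004 in LPS libraries, so GEN 2 lay below LPS 3. For genes of at least 100 FPKM the deviations were 0.024, -0.080 and -0.091 in GEN libraries and 0.107, 0.018 and 0.012 in LPS libraries, so GEN 1 lay above LPS 2 and LPS 3. For genes of 80 to 300 bases they were 0.035, 0.018 and 0.318 in GEN libraries and -0.309, 0.10 and -0.023 in LPS libraries, so that class rested on GEN 3 and LPS 1. Without LPS 1 the median log2 fold change was -0.04 on chromosomes 11 to 33, 0.02 on Z, -0.07 for genes of at least 100 FPKM and 0.09 for genes of 80 to 300 bases. Without GEN 2 these medians were -0.04, 0.02, -0.09 and 0.26, so both chromosome groups moved as much as without LPS 1. Without LPS 1, limma put 141 of 5022 genes of chromosomes 11 to 33 higher and 275 lower at an unadjusted p under 0.05. On Z it put 27 of 586 genes higher and 15 lower, and among all 13171 tested genes 444 higher and 582 lower. Without GEN 2 it put 192 higher and 289 lower on chromosomes 11 to 33. On Z the counts were then 26 and 12, and among all tested genes 578 and 604. What part the composition of LPS 1 or of GEN 2 has in the gene results was not tested.

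**Figure D4:**
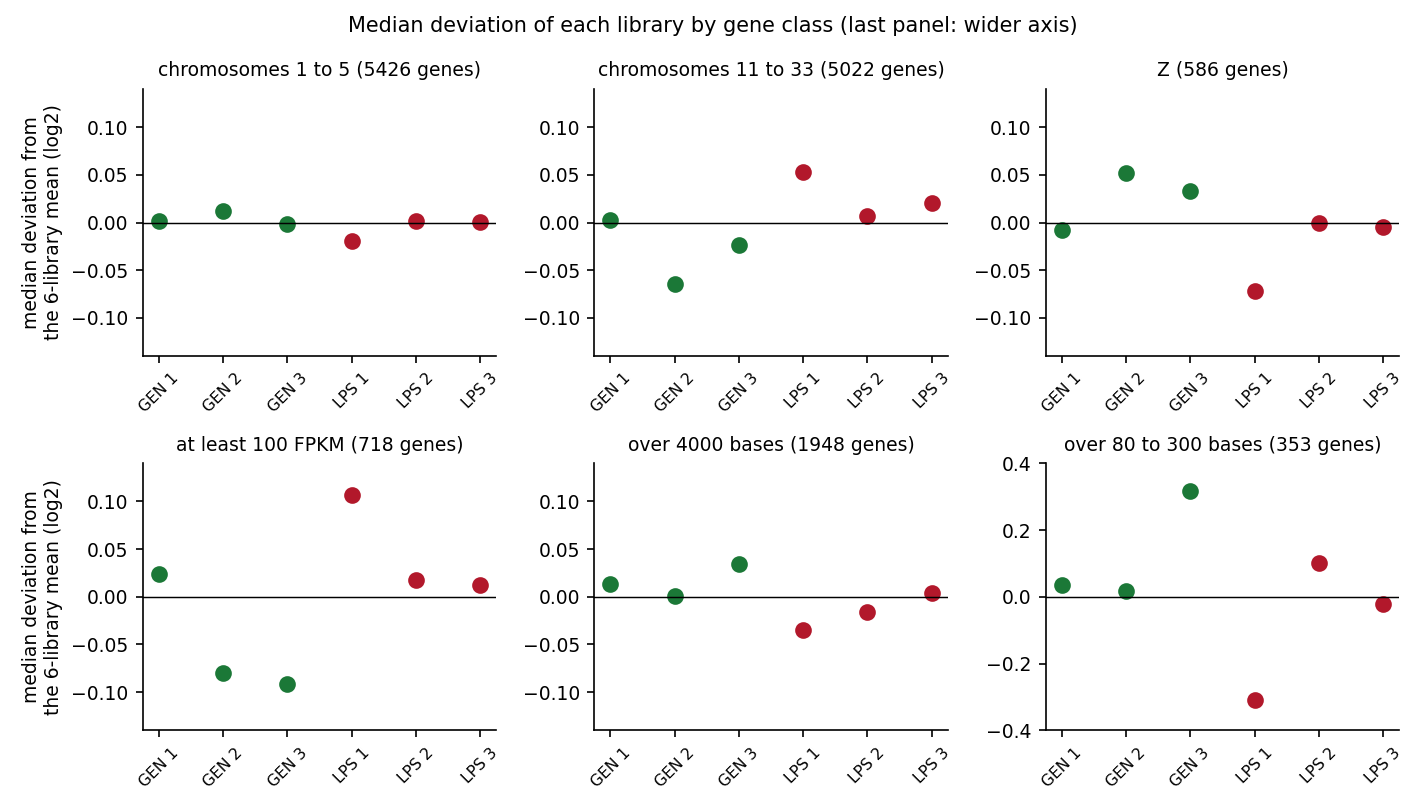
Median deviation of each library from the mean of the 6 libraries (vertical, log2) in 6 classes of genes, with GEN libraries in green on the left and LPS libraries in red on the right of each panel. LPS 1 is at an extreme in each panel, for example at 0.053 on chromosomes 11 to 33, and GEN 1 lies nearer to LPS 2 and LPS 3 than GEN 2 and GEN 3 do for genes of at least 100 FPKM.

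The mitochondrial genome, which encodes subunits of the respiratory chain and the RNAs needed to translate them, had a higher summed level in each GEN library than in any LPS library, a separation that 3 libraries against 3 cannot bring below p = 0.1 in an exact permutation test. Its 16 genes over 80 bases summed to 18163, 18930 and 18703 FPKM in GEN libraries, against 15255, 17415 and 14904 FPKM in LPS libraries. The lowest GEN library was above the highest LPS library, LPS 2. All 37 mitochondrial genes together had a ratio of the GEN mean to the LPS mean of 1.17. The exact two-sided permutation p of the sums was 0.1, the smallest this design allows. Gene by gene, 4 of the 16 (25%) were higher and 0 lower at an unadjusted limma p under 0.05, against 5.84% and 6.96% of all tested genes. The rise was not general, since 56.2% of the 16 had a log2 fold change above 0 and 43.8% below 0, with a median of 0.21. Of the 21 mitochondrial genes of at most 80 bases, 10 were tested, and their median was -0.66, with 0 higher and 4 lower. These short genes held few fragments, 28, 20 and 48 in all 21 together in GEN libraries and 78, 42 and 49 in LPS libraries, so the highest GEN library overlapped LPS 2. In CON 1 and CON 2 the genes over 80 bases summed to 14538 FPKM, below every LPS library, and 15653 FPKM, among the LPS libraries, and in CON 3 to 53663 FPKM.

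Chromosome 16, the small chromosome that carries the chicken major histocompatibility complex, whose products present antigen to T cells, had a lower summed level in each GEN library than in any LPS library. Its 160 genes summed to 4508, 4998 and 4260 FPKM in GEN libraries, against 5799, 5299 and 5096 FPKM in LPS libraries. The groups did not overlap, and GEN 2 and LPS 3 were nearly level. The ratio of the means was 0.85, with an exact two-sided permutation p of 0.1, again the smallest possible. The 5 most abundant genes made up 68.7% of the sum, and each had a lower mean in GEN, but for 0 of them did the GEN and LPS libraries separate completely. Of the 82 tested genes, 3 (3.66%) were higher and 8 (9.76%) lower at an unadjusted limma p under 0.05. Among all tested genes these shares were 5.84% and 6.96%, and those of chromosome 16 rest on few genes. Of the 82 genes, 67.1% had a log2 fold change below 0, against 53.1% of all tested genes, and their median was -0.11. Without LPS 1 this median was -0.07, and the ratio of the sums was 0.883. A like median was found on other small chromosomes, with -0.11 on chromosome 22, -0.11 on 27 and -0.13 on 32. Their summed levels were not taken, so the lower sum cannot be called particular to chromosome 16. For chromosome 16, CON 1 and CON 2 held 4436 and 5472 FPKM, one near the GEN libraries and the other among the LPS libraries, and CON 3 held 8017 FPKM. The Z chromosome gave sums of 22461, 23021 and 22305 FPKM in GEN libraries and 22983, 23420 and 22660 FPKM in LPS libraries, which overlap. Its summed level and its median gene differ in sign, since the ratio of the sums was 0.982.

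**Figure D5:**
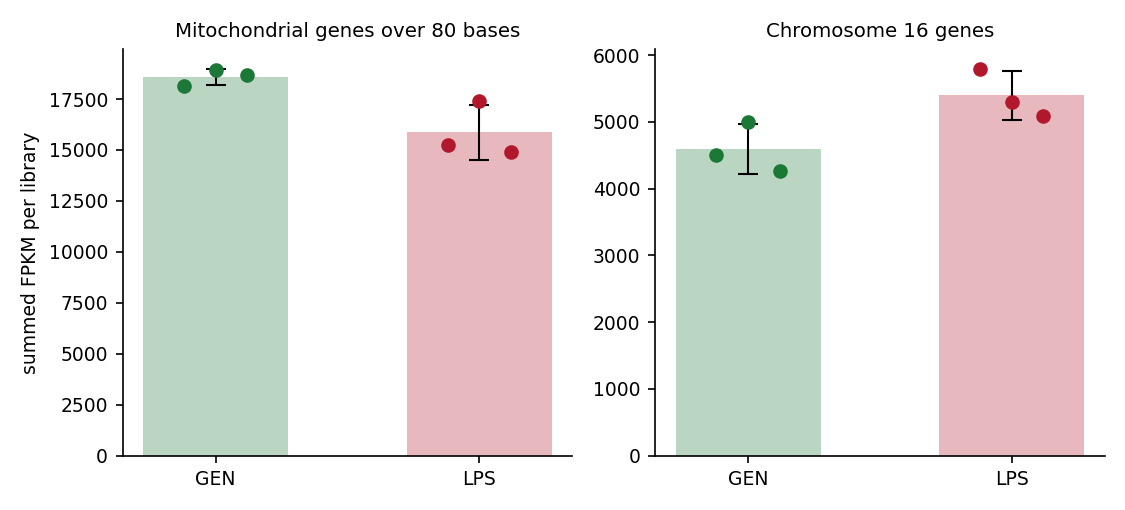
Summed FPKM per library (vertical, from 0) of the 16 mitochondrial genes over 80 bases and of the 160 genes of chromosome 16 in GEN and LPS (points: libraries, bars: mean, error bars: SD, n = 3 each). The GEN libraries lie at 18163 to 18930 FPKM above the LPS libraries on the left, and at 4260 to 4998 FPKM below them on the right.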

How the data were processed

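Per the labels' protocols, Trizol was used for RNA from frozen thymus and a TruSeq kit from Illumina for the libraries. Per the submitters' processing notes, CASAVA 1.8, featureCounts 1.5.0-p3 and the GRCg6a build were used. For aligner, annotation release and strand setting, values were not given in the sources used here, so overlapping and antisense genes may share fragments. The authors deposited FPKM values, with gene position and length per the file headers, and 0 columns of other samples. Multiplied by length and divided by a library's smallest step, 100% of FPKM values above 0 came out whole within 0.01, which gave the fragments.

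The comparison used limma 3.58.1 in R 4.3.3 with trend on log2(FPKM + 1), pseudocount 1, two-sided, p adjusted by Benjamini-Hochberg across the tested genes, on 6 libraries without a block. Figures used Python 3.11.15 and matplotlib 3.10.9. The fit was also run on simulated counts with the same spread for all genes and libraries that differed only in depth and group. This checks the code and cannot show how the fit behaves on these libraries. Named genes were the 2 higher and 2 lower with the lowest p, a mean of at least 1 FPKM, at least 10 fragments in at least 3 libraries and no overlapping gene model. No 2 libraries held identical values, and a chi-square of fragments per degree of freedom was 16.8 to 51.6 within groups, so none was treated as a library deposited again; this does not show that they are separate birds. The 21 lists of gene symbols prepared (244 symbols) could not be used, since 0 identifiers matched a symbol. The comparison, gene classes and lists were chosen with earlier results of these data known. Alternatives were other scalings, filters, pseudocount, trend, libraries, block, weights, thresholds, limma-voom and leaving out each library. Recovered fragments give counting precision only.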

Additional observations from a re-analysis of the deposited data

How the results depend on the processing

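limma called 0 genes under 14 of 20 alternatives and 1 gene, the predicted gene of chromosome 20, under each of the other 6: quantile normalization (limma adjusted p 0.0496), scaling by the sum of fragments (0.0447), at least 1 FPKM in all 6 libraries (0.0425), library quality weights (0.0282, with a weight of 0.518 for LPS 1), the replicate block (0.0464) and the looser threshold of 0.1 (0.0595). Leaving out each library gave 0 called genes throughout and 1026 (without LPS 1) to 1864 (without GEN 1) genes at an unadjusted limma p under 0.05, with 1062 without GEN 3. This count was 431 with all 9 libraries in one fit, 1834 with 8 libraries (without CON 3) and 67 with a fold change of at least 2. Genes whose groups do not overlap numbered 3569 to 4865 when 1 library was left out, since fewer libraries separate more easily. Nothing in the labels explains the replicate numbers, so they were not used in the main fit. Deviations of same-number libraries correlated at 0.35, 0.04 and 0.14. Those of different numbers correlated at -0.12, -0.25, -0.2, 0.18, -0.24 and 0.11, and not every library correlated best with its own number. The replicate block gave 2337 genes at an unadjusted limma p under 0.05. The ratio of the summed level of Z genes turned to 1.04 when taken as a share of fragments. Leaving out each library gave ratios of 1.14 to 1.23 for mitochondrial, 0.812 to 0.883 for chromosome 16, 0.972 to 0.99 for Z and 1.16 to 1.51 for W genes. All 80 log2 fold changes of the 4 named genes under these alternatives kept their sign, which their choice by p largely fixed. No cause of these changes was tested.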

Other observations

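Consecutive genes were also read as runs of 10 tested genes along chromosomes 1 to 33 and Z, a description chosen after the data were seen. Of 12727 such runs, which overlap each other, 67 (0.526%) had every log2 fold change above 0 and 196 (1.54%) every one below 0. Of the runs below 0, 130 lay on chromosomes 11 to 33, which held 38.1% of all tested genes, and 66 on chromosomes 1 to 10 and Z. The run with the highest median, 0.42, lay on chromosome 18 (6726265 to 6892792), with all 10 genes above 0. For 3 of these genes every GEN library lay above every LPS library, against 9.0% of all tested genes, and 4 overlap another gene model. The median deviation of this run was 0.07, 0.00 and 0.50 in the 3 GEN libraries and -0.27, -0.06 and -0.12 in the 3 LPS libraries, with the extremes in GEN 3 and LPS 1. The run with the lowest median, -0.44, lay on chromosome 3 (107370910 to 107472826). For 6 of its 10 genes every GEN library lay below every LPS library, against 11.5% of all tested genes. Since both runs were chosen by their median, the direction and much of the separation of their genes follow from that choice. The median deviation of the chromosome 3 run was -0.19, -0.33 and -0.49 in GEN libraries and 0.48, 0.10 and 0.15 in LPS libraries. Of its 10 genes, 5 overlap another gene model.

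Among the 660 models predicted by the submitters, 445 were tested. At an unadjusted limma p under 0.05, 33 of them (7.42%) were higher and 20 (4.49%) lower in GEN, against 5.84% and 6.96% of all tested genes. Their median log2 fold change was 0.08, with 59.3% above 0, against -0.02 and 46.9% for all tested genes. The median deviations by library overlapped, with -0.011, 0.023 and 0.098 in GEN libraries and -0.082, 0.011 and -0.005 in LPS libraries. These models summed to 7339, 7832 and 8588 FPKM in GEN libraries and to 5838, 7963 and 7037 FPKM in LPS libraries, which overlap. Genes with at least 1 fragment in every library of one group and 0 in every library of the other numbered 37 for GEN and 41 for LPS, with at most 9 and 28 fragments in a library. With at least 3 fragments in every library they numbered 3 for GEN and 1 for LPS, all below the filter and so not tested.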
